A study of Homo sapiens with 8 samples.

Results

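Decitabine (5-aza-2'-deoxycytidine, 5-aza-dC) is a cytidine analog that has to be carried into the cell and phosphorylated before it can be built into DNA, where it traps DNA methyltransferases and so lowers DNA methylation. The genes described here are the 8 human genes for its uptake, activation and breakdown: the nucleoside transporters SLC29A1, SLC29A2 and SLC28A1, the kinases DCK and CMPK1, the triphosphate hydrolase SAMHD1, and the deaminases CDA and DCTD. They were chosen by that textbook role, as every non-control probe of the array named for one of these symbols. The array carried 11 such probes for the 8 genes, of 34423 gene names with a probe. Of the 8 genes, 7 passed the filter on dim signals, with 9 probes, among 19687 gene names tested, and SLC28A1 did not.

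The equilibrative transporters SLC29A1 and SLC29A2 let nucleosides cross the plasma membrane down their gradient, and the concentrative transporter SLC28A1 brings pyrimidine nucleosides in with sodium. DCK adds the first phosphate, the rate-limiting step of activation, CMPK1 adds the second, and SAMHD1 hydrolyzes deoxynucleoside triphosphates, the active form of the drug included. CDA inactivates the free drug by deamination, and DCTD deaminates the monophosphate.

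Expression was measured in HCT116, a human colorectal cancer cell line, on 8 one-color arrays with 60-base probes. CONT1 and CONT2 are clones with a control vector, and TET1-KD1 and TET1-KD2 are stable knockdown clones, each with a different artificial miRNA against TET1, a dioxygenase that oxidizes 5-methylcytosine. Each clone was a single GFP-positive colony selected with G418. An array was hybridized for every clone without treatment and another for cells kept 72 h in 5-aza-dC at 1 µM, with drug and medium renewed daily. The 4 conditions, CONT, CONT 5-aza-dC, TET1-KD and TET1-KD 5-aza-dC, therefore had 2 clones each (n = 2), and the p-values measure the spread between clones. A separate treatment field of the labels follows the kind of clone rather than the titles, and the titles were used. UCHL1, picked because an earlier report of these data found it responsive to 5-aza-dC, followed the titles. Its log2 signal was 1.91 to 2.27 on the 4 untreated arrays and 14.38 to 14.95 on the 4 treated ones. Because of that choice, it is not an independent check of the titles.

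Both treated CONT arrays were alone on slide 2, scanned 230 days after the other 6, which were all on slide 1. For the CONT response, and for the difference in response, slide and treatment cannot be told apart. The arrays' added control RNAs (spike-ins) differed between the slides: after scaling, those at log2 signals of 7.80 and 9.25 were lower on slide 2 by 0.56 and 0.57, the one at 11.03 was lower by 0.16, and those at 13.19, 15.17, 16.35 and 17.96 were higher by 0.08, 0.16, 0.25 and 0.40. Within slide 1, these spike-ins spanned 0.16 to 0.31. TET1 itself, by its brightest probe, had log2 signals of 9.70 and 9.75 in CONT1 and CONT2 and of 8.65 and 9.41 in TET1-KD1 and TET1-KD2. That difference of -0.69 did not pass the test (limma, adjusted p = 0.61). Its other 2 tested probes did not pass either, at -0.98 (limma adjusted p = 0.585, unadjusted 0.039) and -2.14 (adjusted p = 0.37, unadjusted 0.00169). The probe at -2.14 was above background on only 2 of the 8 arrays. Its log2 signal was 4.95 and 4.38 in CONT and 2.19 and 2.85 in TET1-KD, so its size and p-values rest on signals near or below background. By quantitative PCR, the study reported lower TET1 mRNA in both knockdown clones than in the control. Of the epithelial markers, EPCAM, CDH1, KRT8, KRT18, KRT19, CLDN7 and CDX2 were above background on all 8 arrays and VIL1 on 2. Of the 4 fibroblast markers, COL1A2 and LUM were above background on 0 arrays, DCN on 4 and COL1A1 on 8. Of 3 leukocyte markers, CD3E was above background on 1 array and PTPRC and CD14 on 8. The summed signal of these 3 was 109 to 153 in CONT and 489 to 490 in CONT 5-aza-dC, and 94.5 to 132 in TET1-KD and 197 to 240 in TET1-KD 5-aza-dC. That of the fibroblast list was 329 to 360, 642 to 848, 339 to 447 and 602 to 775 in the same order. The part of these signals in the results was not tested. On arrays of whole cultures, a change in the make-up of the culture and a change in RNA per cell cannot be told apart.

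Because the drug lowers DNA methylation, found mainly at CG dinucleotides, the stretch upstream of the transcription start is shown for DCTD, DCK and CDA. DCTD and DCK are the richest in CG among the matched genes, and CDA is 1 of the poorest. The sequences are RefSeq's on GRCh38.p14, 250 bases ending 1 base before the annotated start, 5′ to 3′ on the gene's strand, with each CG in capitals. For DCTD, the more downstream of its annotated starts, with window chr4:182917387-182917636 on the minus strand, is given. DCK lies at chr4:70993399-70993648 and CDA at chr1:20588847-20589096, both on the plus strand.

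DCTD: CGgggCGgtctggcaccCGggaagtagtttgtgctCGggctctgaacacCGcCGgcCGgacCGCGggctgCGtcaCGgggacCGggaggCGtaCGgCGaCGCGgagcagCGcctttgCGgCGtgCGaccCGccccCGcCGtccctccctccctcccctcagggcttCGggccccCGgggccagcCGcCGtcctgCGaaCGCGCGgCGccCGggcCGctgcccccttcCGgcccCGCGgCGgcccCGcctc

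DCK: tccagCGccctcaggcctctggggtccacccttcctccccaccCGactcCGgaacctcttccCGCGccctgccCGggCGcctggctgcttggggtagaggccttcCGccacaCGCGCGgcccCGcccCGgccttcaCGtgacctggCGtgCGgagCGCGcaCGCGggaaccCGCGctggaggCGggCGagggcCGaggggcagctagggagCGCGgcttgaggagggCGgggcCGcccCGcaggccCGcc

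CDA: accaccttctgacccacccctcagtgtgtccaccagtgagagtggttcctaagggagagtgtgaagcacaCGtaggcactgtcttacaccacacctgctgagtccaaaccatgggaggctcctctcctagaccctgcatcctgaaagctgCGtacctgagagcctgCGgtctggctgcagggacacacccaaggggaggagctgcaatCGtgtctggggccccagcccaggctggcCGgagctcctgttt

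The DCTD window held 40 CGs, a number that 2.16% of the 35116 RefSeq windows of this length reached. The DCK window held 31 (reached by 10.9%) and the CDA window 5 (reached by 65.7%). Among the other matched windows, SLC28A1 held 3 CGs, SAMHD1 14, CMPK1 16, the other DCTD window 23, and both SLC29A1 windows 19 and 27, beside a median of 11 over all windows. SLC29A2 had no entry. The motif GGGCGG, on either strand, occurred in 5 of the 9 windows of these genes and in 42.6% of all windows. CCAAT, on either strand, occurred in 1 of the 9 (SAMHD1) and in 32% of all. No methylation was measured here, so these letters describe the windows only.

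SLC29A1 was above background on all 8 arrays. Its log2 signal was 11.96 and 12.23 in CONT1 and CONT2 and 11.86 and 11.80 after 5-aza-dC. In TET1-KD1 and TET1-KD2 it was 12.29 and 12.25, and 11.39 and 11.45 after treatment. All 4 clones were lower after treatment, and the treated and untreated groups did not overlap in either kind of clone. With 2 arrays a group, such a separation is no test by itself, here or for the genes below. SLC29A1 fell by 0.85 in TET1-KD (95% interval -1.22 to -0.48, 1.81-fold lower, adjusted p = 0.0177 by limma). In CONT the difference was -0.26 (-0.63 to 0.11, limma adjusted p = 0.21).

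SLC29A2 fell in CONT. Its log2 signal was 8.53 and 8.64 in CONT and 7.34 and 7.56 after 5-aza-dC, against 8.21 and 8.47 in TET1-KD and 7.67 and 7.66 after it. The treated arrays were below the untreated ones in both kinds of clone. The fall in CONT was 1.13 (-1.53 to -0.73, 2.19-fold lower, limma adjusted p = 0.00323). In TET1-KD the difference of -0.67 (-1.07 to -0.27) did not pass (limma adjusted p = 0.0506), and it passed with normexp background correction (0.0389), quantile normalization (0.0364), an offset of 50 before the log2 (0.0365), the GC correction (0.0133) and the mean over all probes of a gene (0.0453).

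SLC28A1 was not tested, because neither of its probes was above background on both arrays of any condition. The brighter probe was above background on treated CONT1, with a log2 signal of 7.43, and on treated TET1-KD2, with 4.40. On the other 6 arrays, where it was not well above background, it ranged from 2.58 to 3.96. The second probe was above background on treated CONT1 alone, at 5.97, and ranged from 1.89 to 2.81 elsewhere. Treated CONT2 was not well above background for either probe, so the clones of that condition differed.

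**Figure D1:**
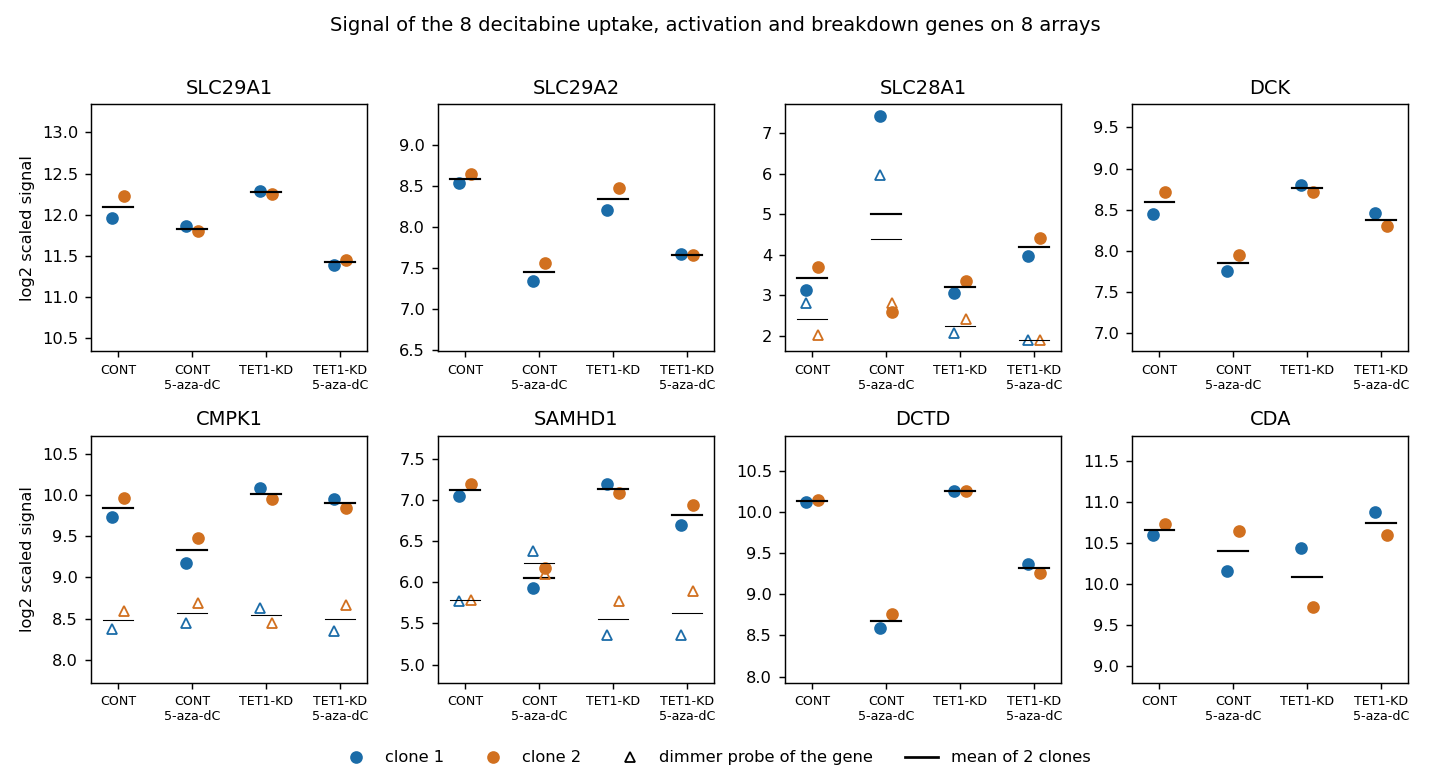
Log2 scaled signal (y axis) of each of the 8 genes in the 4 conditions (x axis). Points are single arrays, blue for clone 1 and orange for clone 2, open triangles are the dimmer probe of a gene with 2 probes, and lines are means of 2 clones. DCTD was at 10.12 to 10.26 on the untreated arrays and at 8.59 to 9.37 on the treated ones, and SLC28A1 stood out on treated CONT1 alone.

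DCK, which adds the first phosphate, had log2 signals of 8.45 and 8.72 in CONT and of 7.76 and 7.95 after 5-aza-dC. In TET1-KD it had 8.80 and 8.72, and 8.46 and 8.30 after treatment. Treated arrays were lower than untreated ones in both kinds of clone. DCK fell by 0.74 in CONT (-1.14 to -0.33, 1.66-fold lower, limma adjusted p = 0.0159), a call lost without the untreated CONT2 array (adjusted p = 0.104) or without the treated CONT1 array (adjusted p = 0.0753). In TET1-KD the difference was -0.38 (-0.79 to 0.03, limma adjusted p = 0.21).

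CMPK1 did not pass the test in any comparison. Its brighter probe, printed in 10 spots per array, had log2 signals of 9.73 and 9.96 in CONT and of 9.18 and 9.48 after treatment, and of 10.09 and 9.95 in TET1-KD and 9.95 and 9.85 after treatment. Treated CONT arrays lay below the untreated ones, and the TET1-KD arrays touched at 9.95. The difference was -0.51 in CONT (-0.94 to -0.09, limma adjusted p = 0.0583) and -0.12 in TET1-KD (-0.55 to 0.30, adjusted p = 0.706). With the clone as a block, the CONT difference passed (limma adjusted p = 0.0283). It also passed with normexp (0.0289), the offset of 50 (0.0356), only probes above background on all 8 arrays (0.0483) and the GC correction. With the mean of both probes it did not (adjusted p = 0.353).

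SAMHD1 gave opposite signs with its 2 probes. The brighter one had log2 signals of 7.05 and 7.19 in CONT and of 5.93 and 6.17 after 5-aza-dC, and of 7.20 and 7.09 in TET1-KD and 6.70 and 6.94 after it. By that probe SAMHD1 fell by 1.07 in CONT (-1.48 to -0.66, 2.10-fold lower, limma adjusted p = 0.0043), and the TET1-KD difference was -0.32 (-0.73 to 0.09, adjusted p = 0.278). The dimmer probe had 5.77 and 5.79 in CONT and 6.38 and 6.10 after treatment, a difference of 0.46 (-0.14 to 1.05, adjusted p = 0.179). With the mean of both probes, the CONT difference was -0.31 (adjusted p = 0.202), so the call for SAMHD1 rests on the brighter probe.

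The probes of the 2 genes whose probes gave different values are shown by their first 30 of 60 bases, as the array's design gives them, because they read different stretches of 1 transcript. The SAMHD1 probes start at base 2597 (brighter) and 1513 (dimmer) of NM_015474 and lie on hg19 at chr20:35520759-35520818 and chr20:35533804-35533863. The CMPK1 probes start at base 2336 (brighter) and 560 (dimmer) of NM_016308 and lie at chr1:47843918-47843977 and chr1:47838720-47838779.

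SAMHD1 brighter probe: tgacaaacatggctaaaaacaaaacatcaa

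SAMHD1 dimmer probe: gaaagacgcacgagagattttaaaacaaat

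CMPK1 brighter probe: tggccactaaaattcatattgagattatct

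CMPK1 dimmer probe: aagaccatggatgggaaggcagatgtatct

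The dimmer CMPK1 probe had log2 signals of 8.37 and 8.59 in CONT and of 8.44 and 8.69 after treatment, with a difference of 0.09 (-0.37 to 0.55, limma adjusted p = 0.741). In TET1-KD its difference was -0.03 (-0.49 to 0.43, adjusted p = 0.935). For both genes the probe nearer to the transcript's 3′ end was the one with lower values in treated than in untreated CONT.

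DCTD, the deoxycytidylate deaminase, fell in both kinds of clone. Its log2 signal was 10.12 and 10.15 in CONT and 8.59 and 8.76 after 5-aza-dC, and 10.26 and 10.25 in TET1-KD and 9.37 and 9.26 after it. The 4 untreated arrays lay within 0.13 of each other and above all 4 treated arrays. DCTD fell by 1.46 in CONT (-1.80 to -1.11, 2.75-fold lower, limma adjusted p = 0.000758) and by 0.94 in TET1-KD (-1.28 to -0.59, 1.92-fold lower, adjusted p = 0.00953). Its 4 condition means spanned 1.58, the widest among the 7 tested genes, whose spans started at 0.66 (CDA). The 3 gene names whose signals followed DCTD most closely over the 8 arrays were COQ5 (Pearson r = 0.996), SUV39H1 (r = 0.995) and HIST1H3H (r = 0.994), out of 15343 names above background on all arrays. The 8 arrays share 4 clones and the 2 slides, so these correlations are descriptions.

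CDA, which inactivates the free drug, passed no test, and its values after treatment were lower in both CONT clones and higher in both TET1-KD clones. Its log2 signal was 10.60 and 10.73 in CONT1 and CONT2, and 10.16 and 10.64 after treatment. In TET1-KD1 and TET1-KD2 it was 10.44 and 9.72, and 10.88 and 10.60 after treatment. The untreated TET1-KD clones differed from each other by more than the treated ones. The difference was -0.27 in CONT (-0.97 to 0.44, limma adjusted p = 0.492), where slide and treatment cannot be told apart. In TET1-KD it was 0.66 (-0.04 to 1.36, adjusted p = 0.204).

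**Figure D2:**
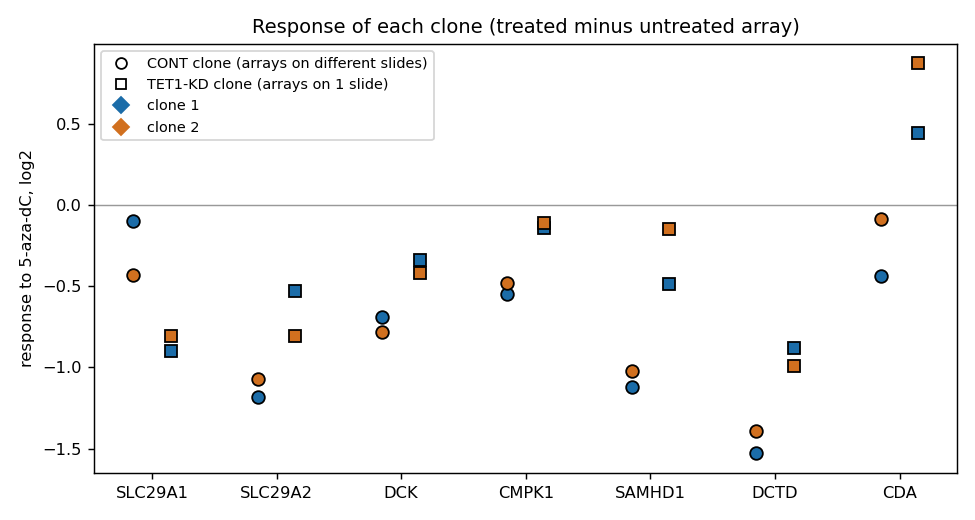
Response of each clone to 5-aza-dC (y axis, log2 signal of the treated minus the untreated array) for the 7 tested genes (x axis). Circles are CONT clones, whose treated and untreated arrays lay on different slides, squares are TET1-KD clones, and colors mark clones 1 and 2. DCTD was lower in all 4 clones, at -1.53 and -1.39 in CONT and -0.88 and -0.99 in TET1-KD, and CDA was at -0.44 and -0.09 in CONT and 0.44 and 0.87 in TET1-KD.

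Of the 7 tested genes, 4 fell after 5-aza-dC in CONT (SLC29A2, DCK, SAMHD1 and DCTD) and 0 rose. Over all tested gene names, 21.3% were called lower and 20.5% higher in CONT. The median difference was -0.74 over the 7 genes and -0.05 over all names. In TET1-KD, 2 of the 7 fell (SLC29A1 and DCTD) and 0 rose, beside 3.09% of all names called lower and 9.44% called higher. The median was -0.38 over the 7 genes and -0.06 over all names. Among probes of like signal to each gene, medians ran from -0.23 to -0.13 in CONT and from -0.21 to -0.08 in TET1-KD. At an unadjusted p under 0.05, 5 of the 7 genes passed in CONT, beside 51.2% of all names, and 3 in TET1-KD, beside 29%.

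The TET1-KD call for SLC29A1 was lost when any 1 of the 4 TET1-KD arrays was left out (limma adjusted p = 0.0589 to 0.0717), and that for DCTD without the treated TET1-KD2 array (adjusted p = 0.0538), while on the 6 arrays of slide 1 both passed (adjusted p = 0.0386 and 0.0193). In CONT, putting the arrays on the spike-in signals of slide 1 by a straight line left DCTD called (-0.93, limma adjusted p = 0.00796) and not SLC29A2 (-0.50, adjusted p = 0.0835), SAMHD1 (-0.31, adjusted p = 0.258) or DCK (-0.14, adjusted p = 0.638). That alignment also moved the median of all probes from -0.08 to 0.38, and relative to that median DCTD was at -1.31, SLC29A2 at -0.88, SAMHD1 at -0.69 and DCK at -0.52, against -1.38, -1.05, -0.99 and -0.65 without the alignment. With it, 20.3% of the probes called were lower, against 54.1% without it.

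**Figure D3:**
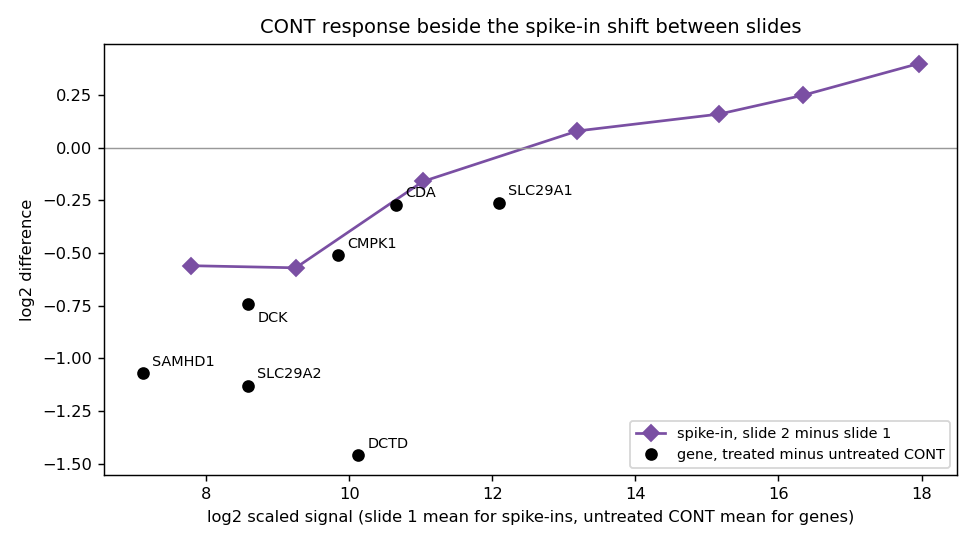
Log2 difference (y axis) against log2 scaled signal (x axis). Purple diamonds are the 7 spike-ins above background on every array, as slide 2 minus slide 1, and black points are the 7 tested genes, as treated minus untreated CONT. DCTD at -1.46 lies farther below the spike-ins of like signal than DCK at -0.74 or CMPK1 at -0.51.

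Among the untreated clones, 0 of 7 genes passed between TET1-KD and CONT in either direction (limma), beside 0.0102% of all gene names called higher and 0.0102% called lower. TET1 itself, by its brightest probe, did not pass this comparison (limma adjusted p = 0.61), so a count of 0 does not show that these genes were unchanged. At an unadjusted p under 0.05, 0 of 7 passed by limma, beside 8.22% of all names, and 1, DCTD, by the methods' t-test, which after Benjamini-Hochberg adjustment called 0. The differences ranged from -0.58 for CDA (-1.28 to 0.12, limma adjusted p = 0.63) to 0.18 for SLC29A1 (-0.19 to 0.55, adjusted p = 0.727). SAMHD1 differed by 0.02 (-0.39 to 0.43) and DCTD by 0.12 (-0.23 to 0.47). All 4 arrays of this comparison lay on slide 1.

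**Figure D4:**
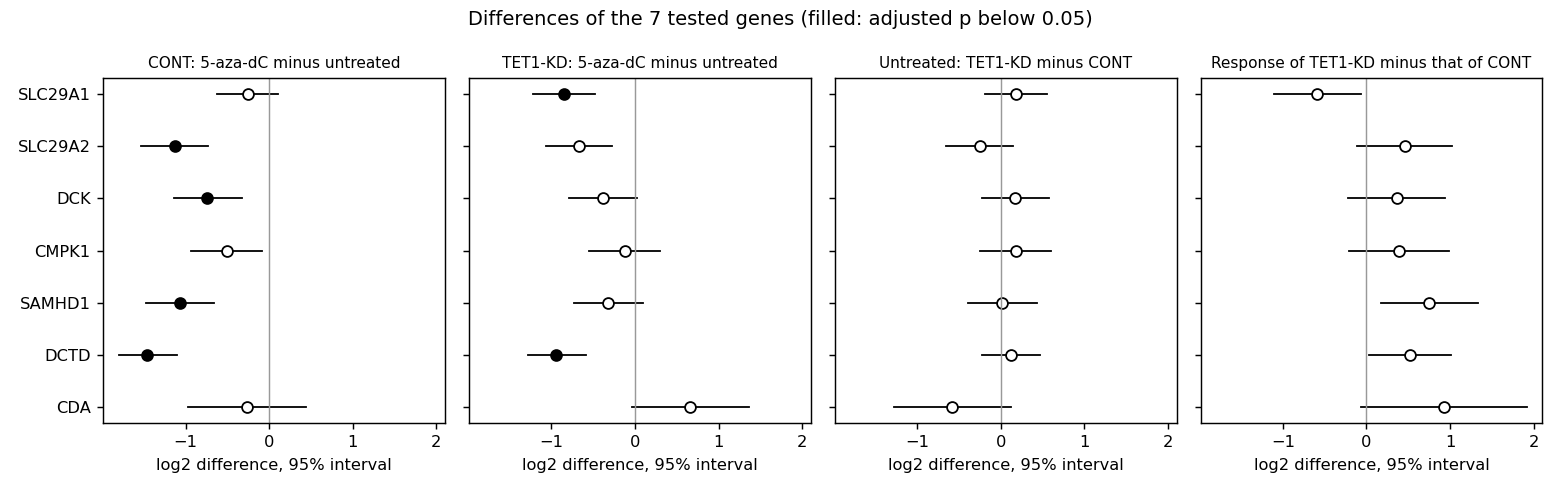
Log2 differences (x axis) with 95% intervals for the 7 tested genes (rows) in the 4 comparisons (panels), filled where the adjusted p was below 0.05. The filled points are SLC29A2, DCK, SAMHD1 and DCTD in CONT and SLC29A1 and DCTD in TET1-KD, and there are none in the other panels.

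The difference in response, TET1-KD minus CONT, was tested in the same model and 0 of 7 genes passed, beside 3.63% of all gene names called higher and 1.64% called lower. At an unadjusted p under 0.05 there were 3, beside 24.2% of all names: SAMHD1 at 0.75 (0.17 to 1.33, limma adjusted p = 0.126), DCTD at 0.52 (0.03 to 1.01, adjusted p = 0.181) and SLC29A1 at -0.59 (-1.11 to -0.07, adjusted p = 0.162). The SAMHD1 value is that of the brighter probe, and the dimmer one gave -0.39 and the mean of both 0.18 (adjusted p = 0.704). CDA had the highest value, 0.93, with the widest interval (-0.07 to 1.92, limma adjusted p = 0.228). Slide and treatment cannot be told apart in this comparison. With the spike-in straight line, 1 of the 7 genes had an unadjusted p under 0.05 (limma), beside 7736 of 27286 probes. The median over the 7 genes went from 0.46 to -0.04 with it, and that of all probes from 0.049 to -0.401. A fall called in 1 kind of clone and not in the other was thus not shown to differ between them for SLC29A1, SLC29A2, DCK or SAMHD1. 

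The remaining genes of nucleoside and nucleotide handling were taken as lists by textbook role, each gene counted by its brightest tested probe. The counts stand beside the shares of all gene names given above, 21.3% lower and 20.5% higher in CONT and 3.09% lower and 9.44% higher in TET1-KD. Of 4 other nucleoside transporters, 2 were tested and 0 passed in any comparison (limma). In the untreated clones, 1 had an unadjusted p under 0.05, beside 8.22% of all names. A dimmer probe of 1 of them, SLC29A4, a monoamine and adenosine transporter, did pass, in CONT (limma adjusted p = 0.00172) and for the difference in response (2.65, 1.73 to 3.58, adjusted p = 0.0193). Its log2 signal was 5.03 and 4.84 in CONT and 3.06 and 2.40 in treated CONT, where it was not well above background, so that it was at least 1.35-fold lower there, taking the lowest signal above background on each treated array. In TET1-KD it was 3.96 and 4.40, not well above background either, and 4.53 and 4.72 after treatment. The probe thus entered the tests only through CONT and treated TET1-KD, where it was above background. Both test results, with the 2.65 and its interval, rest in part on signals not above background. Beyond the bound for CONT, no size is read from them. The brighter SLC29A4 probe differed by -0.11 in CONT (adjusted p = 0.636). Of 5 efflux transporters, 4 were tested. ABCC5, an exporter of cyclic nucleotides and nucleotide analogs, rose by 1.08 in CONT (limma adjusted p = 0.00763), though its other 2 probes, at 0.60 and 0.08, did not pass. ABCB1, the multidrug transporter P-glycoprotein, rose by 0.80 in TET1-KD (limma adjusted p = 0.0414), a call lost with the clone as a block (adjusted p = 0.0561). It was also lost with normexp (0.104), quantile normalization (0.187), the offset of 50 (0.0618) and no filter on dim signals (0.0923).

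Of 13 other nucleoside and nucleotide kinases, all were tested, and 4 fell in CONT (21.3% of all names did) and 1 in TET1-KD (3.09% of all names), with 0 rising. The 4 were NME4 (-1.54), CMPK2 (-1.19), NME7 (-0.96) and NME6 (-0.77), with limma adjusted p of 0.00713 to 0.0271. NME4 is a mitochondrial nucleoside diphosphate kinase and CMPK2 a mitochondrial UMP-CMP kinase. DTYMK, the thymidylate kinase, fell by 0.76 in TET1-KD (limma adjusted p = 0.0369).

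Nucleotidases and nucleotide pyrophosphatases held 7 tested genes of 9, of which 4 fell in CONT (21.3% of all names did) and 2 in TET1-KD (3.09% of all names). DUT, which hydrolyzes dUTP to the dUMP that DCTD also makes, fell by 1.65 in CONT (limma adjusted p = 0.00102) and by 0.80 in TET1-KD (adjusted p = 0.0369). Its log2 signal was 14.36 and 14.51 in CONT, 12.84 and 12.73 in treated CONT, 14.73 and 14.55 in TET1-KD and 14.01 and 13.68 in treated TET1-KD. Treated and untreated arrays did not overlap, as for DCTD. DCTPP1, a dCTP pyrophosphatase, fell by 0.96 in CONT (limma adjusted p = 0.00677) and by 0.83 in TET1-KD (adjusted p = 0.0309). NT5M fell by 1.31 and NT5C2 by 0.76 in CONT, although the second NT5C2 probe, at 0.32, did not pass.

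Of 8 genes of pyrimidine supply, 0 passed in TET1-KD, where 2 had an unadjusted p under 0.05 (limma), beside 29% of all names. In CONT, RRM1 and CTPS2 fell (21.3% of all names did). RRM1, the large subunit of ribonucleotide reductase, fell by 1.35 (limma adjusted p = 0.00358), and CTPS2, a CTP synthase, by 0.63 (adjusted p = 0.0479), a call lost with the clone as a block (adjusted p = 0.0647), while its dimmer probe fell by 1.03 (adjusted p = 0.00303). A dimmer probe of UPP1, a uridine phosphorylase, rose by 2.81 in CONT (1.10 to 4.51, limma adjusted p = 0.0215), and the brighter one, at 1.06, did not pass (adjusted p = 0.18). In the untreated clones and in the difference in response, 0 genes of the 5 lists passed by their brightest probe. After the spike-in alignment, 5 of the 11 CONT calls in these lists remained: ABCC5, NME4, DCTPP1, DUT and RRM1. Leaving out any 1 of the CONT arrays left 5 or 6 of the 11, with NME4, DCTPP1, DUT and RRM1 each time, and leaving out any 1 of the TET1-KD arrays left 0 to 2 of the 4 TET1-KD calls. On the 6 arrays of slide 1, 0 of the 4 TET1-KD calls remained (limma adjusted p = 0.0584 to 0.0706). Likewise 0 remained with quantile normalization, without the filter on dim signals, in the fit of the 4 arrays compared and with the methods' t-test. The other processing settings left 2 to 4 of them. The methods' t-test left 5 of the 11 CONT calls.

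**Figure D5:**
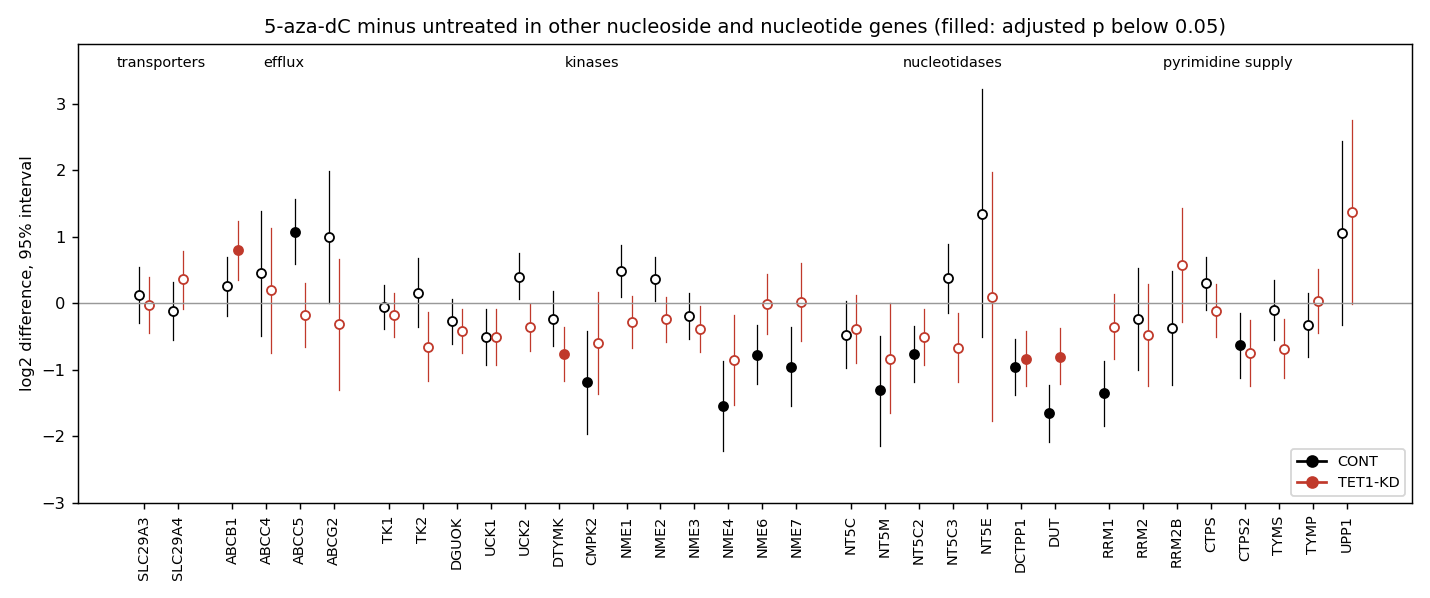
Log2 difference after 5-aza-dC with 95% intervals (y axis) for the 34 tested genes of the 5 lists (x axis), in CONT (black) and TET1-KD (red), filled where the adjusted p was below 0.05. DUT and DCTPP1 are filled in both kinds of clone, and ABCC5 and ABCB1 are the filled points above 0.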

How the data were processed

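Gene expression was measured on 8 arrays of 62976 spots. The authors deposited spot intensity values from Agilent Feature Extraction 10.7.3.1 (version per the file headers), background-subtracted by that software and not normalized between arrays. The deposited value table holds the same intensity values rounded, with no log, centring or direction. Normalization in the study's own analysis is not given in the sources used here.

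Arrays were scaled to a common 75th percentile of intensity (395.5 to 623.7 before scaling, the geometric mean after). Values under 1 were set to 1, and log2 was taken. Spots with outlier flags (229 to 329 an array) were left out, 0 were saturated, and repeated spots were averaged. Tests covered the 27286 probes that exceeded background in both clones of some condition, and a gene took the value of its brightest tested probe. The number of arrays limits the precision.

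The comparisons are contrasts of 1 fit over the 8 arrays (limma 3.58.1, R 4.3.3), with Benjamini-Hochberg adjustment over all tested probes and a threshold of 0.05. The script was tested on simulated data. The methods' t-test was an alternative, as were the settings in the closing section. The text names all 8 genes, TET1 and UCHL1 as checks, the 3 genes most like the widest-ranging member, and of the other lists those that passed, at most 4 a list and comparison. The second probes of a gene beyond the 8 were named after their values were seen. Members and lists were chosen with earlier results of these data known. The clones pair treated with untreated arrays by their titles (correlation of deviations from the condition means 0.198 in CONT and 0.476 in TET1-KD). Sequences are from RefSeq and the array's design. Figures were drawn with matplotlib. 1 marker of the leukocyte list is not reported here.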

Additional observations from a re-analysis of the deposited data

Results flagged for a closer look

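CDA was singled out because it was lower after 5-aza-dC in both CONT clones (-0.44 and -0.09) and higher in both TET1-KD clones (0.44 and 0.87, log2). The difference between the responses was 0.93 (95% interval -0.07 to 1.92), which did not pass the test (limma, adjusted p = 0.228). The treated CONT arrays lay on slide 2, so slide and treatment cannot be told apart for the CONT values. With the spike-in straight line, CDA in CONT was at -0.28 relative to a median of all probes of 0.38. Without it, CDA was at -0.19 relative to a median of -0.08. Its sign against 0 in CONT thus depended on that alignment, which moved the median, while CDA stayed below the median both ways.

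SLC28A1 was singled out because both of its probes, which entered no comparison, were above background on the treated CONT1 array, with log2 signals of 7.43 and 5.97. On the treated CONT2 array the same probes were at 2.58 and 2.81, not well above background.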

How the results depend on the processing

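No log2 difference of the 7 genes, or of the called genes of the lists, changed direction past the threshold under the alternatives run. Of the 7 genes, 4 were called in CONT, and 1 (DCTD) with the methods' t-test, 1 with the spike-in straight line and 1 with spike-in interpolation, which was chosen after seeing the data, and 3 to 4 when 1 array was left out. The GC correction of the response gave 6 in CONT, adding SLC29A1 (-0.70, adjusted p = 0.0126) and CMPK1 (-0.97, adjusted p = 0.00651) and moving DCK to -1.33. In TET1-KD 2 were called, and 3 with normexp, quantile normalization, the offset of 50, the mean over probes or the GC correction (SLC29A2 added each time), 0 in the fit of the 4 arrays compared, 0 with the methods' t-test, 5 with the GC correction and the replicate block, and 0 to 1 when 1 array was left out. The fewer arrays leave fewer residual degrees of freedom, and the cause of the other changes was not tested. The planned GC correction moved the median of all probes from -0.08 to -0.235 in CONT and from -0.068 to -0.305 in TET1-KD. A robust loess, added after those results were seen, moved them to 0.051 and 0.024 and gave 5 and 2 called genes, with SLC29A1 in CONT at -0.33 (adjusted p = 0.136) and DCK at -1.07, and the same counts with the replicate block. The replicate block alone called 5 genes in CONT and 2 in TET1-KD, and 0 for the difference in response. The untreated comparison and the difference had 0 called genes under every alternative run.

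Over all probes, 5233 were called higher and 6168 lower in CONT, and 2151 and 2011 with the methods' t-test. The split was 45.7% lower with normexp, 62.2% with quantile normalization, 64.3% with the GC correction, 44.2% with its robust form, 20.3% with the spike-in line and 24.2% with spike-in interpolation, against 54.1% as reported. In TET1-KD, 2429 were called higher and 789 lower, and 1614 and 73 in the fit of 4 arrays, 0 and 0 with the methods' t-test, 612 and 579 with probes above background on all 8 arrays, and 2313 and 3892 with the GC correction. The lower share there was 24.5%, and 35.7% with normexp, 37.9% with quantile normalization and 62.7% with the GC correction.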
